A study of Mus musculus with 16 samples.

Results

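The hearts of 4 mice fed a primate formula called UW were compared with those of 4 mice fed a primate formula called NIA, by bulk RNA sequencing of the ventricles. These are 8 of the 16 libraries of a study with 4 diets and 4 animals on each, and they were chosen by their titles, whose diets are also those of the diet labels. Both groups were male C57BL/6 mice, 6 weeks old at the start, assigned to their diet at random and kept on it for 6 months with free access to food. The NIA group ate LabDiet 5L1F and the UW group ate Envigo TD.85387. Of the remaining animals, 4 ate a standard rodent chow (Prolab IsoPro RMH 3000 5P75) and 4 ate mNIA, the NIA diet with its sucrose and fat content set to that of UW. Each library holds RNA from the lower ventricles of 1 animal, and the part of each heart kept for histology is not analysed here. The library codes do not spell the diets: the libraries titled UW carry the letters NC and those titled NIA the letters MNC, so each direction given here rests on the titles.

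The formulas take their names from the rhesus monkey studies of caloric restriction at the National Institute on Aging and the University of Wisconsin. The NIA diet is made largely from natural ingredients, whereas the UW diet is a semi-purified formula rich in sucrose, so the diets differ in more than sugar and fat. The ventricle draws most of its ATP from the oxidation of fatty acids. Sterol, fatty acid and insulin signalling pathways set how much fat its cells take up, make and burn, and fibroblasts lay down the collagen between them.

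Library measures differed between the groups and come before the gene results, because several move with them. Total counts were 5981624, 4880200, 5048842 and 6583503 in UW replicates 1 to 4. In NIA they were 3143343, 63005361, 5735048 and 2278223, so that replicate 2 was 27.7 times as deep as replicate 4. Expression is given as CPM, counts scaled to a common library total, with a TMM factor set by the bulk of the genes, so the values of a library are not shares of its total. On that scale 1 count was worth 0.711 CPM in NIA replicate 4, 0.419 in NIA replicate 1 and 0.134 to 0.204 in the UW libraries. Genes with 25 or more A, or T, bases in a row in a transcript (not counting A at the transcript's end; called run genes here) took 24.1%, 9.23%, 11.7% and 26.6% of the counts in NIA replicates 1 to 4. They took 7.32%, 6.45%, 8.26% and 6.99% in UW, and 6.04% to 14.2% in the chow and mNIA libraries. The rank correlation across genes between a gene's level, relative to its median over libraries, and its transcript length was 0.08, -0.20, -0.21 and -0.41 in NIA and 0.15, 0.00, 0.13 and 0.37 in UW. NIA replicates 1 and 4 stood apart on the share of run genes, and on the length measure NIA replicate 4 and UW replicate 4 lay farthest from 0, in opposite directions.

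**Figure D1:**
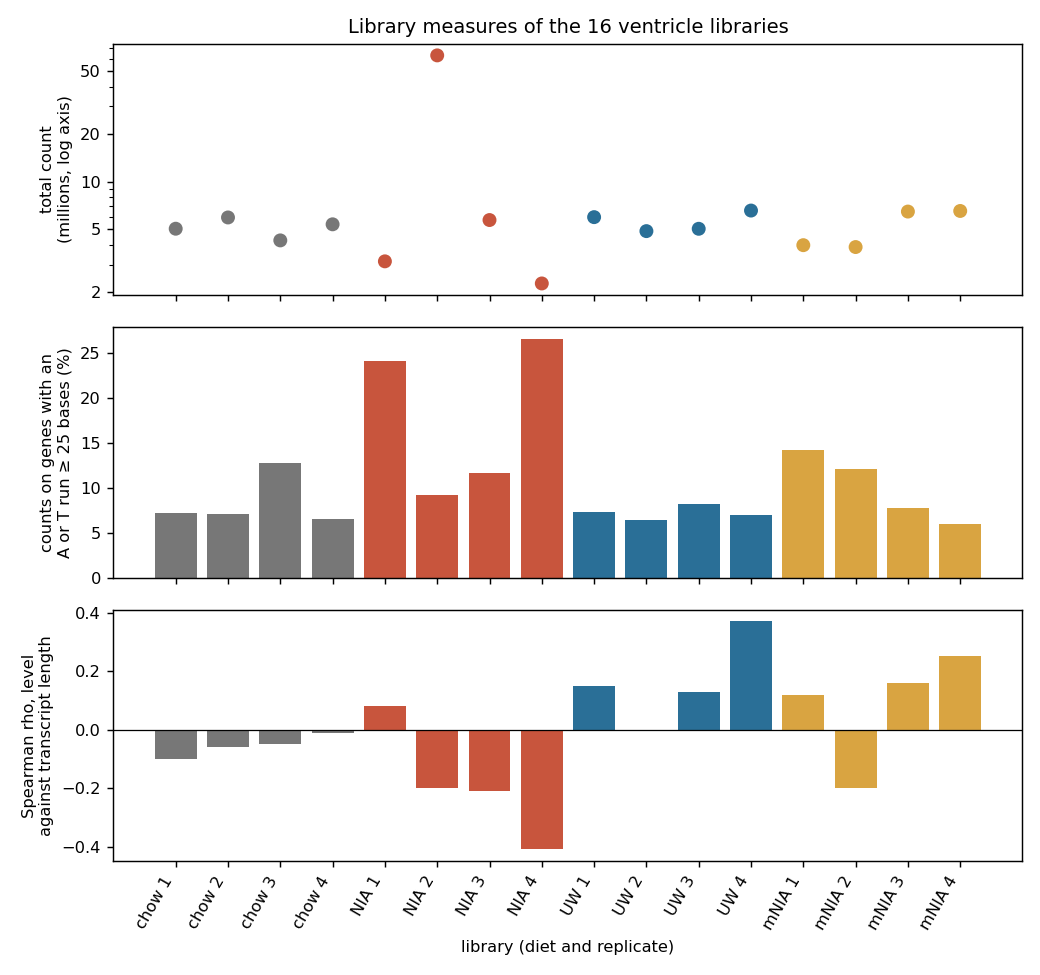
Total count (log axis), percent of counts on run genes, and Spearman rho between level and transcript length across genes, for the 16 libraries (1 point or bar per animal). NIA replicate 2 stands above all others in total count, and NIA replicates 1 and 4 hold the highest shares on run genes, 24.1% and 26.6%.

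The labelled tissue was checked against cell type markers. The summed level of 14 ventricular cardiomyocyte markers was 77408 to 121429 CPM in UW and 73699 to 161934 CPM in NIA, against 110 to 178 and 91 to 166 CPM for the 4 atrial markers in the file of the 6 listed. Most of the atrial sum was Nppa, at 82.8 to 161 CPM in UW and 62.9 to 133 CPM in NIA. Nppa is also in the list of cardiac stress genes used below, so it is not an atrial marker alone. Endothelial sums were 4788 to 6535 CPM in UW and 5517 to 6558 in NIA, fibroblast sums 2503 to 4060 and 2321 to 3015, and macrophage sums 315 to 688 and 249 to 538. None of the markers in the file was at 0 in all 8 libraries. In whole tissue, fewer cells of a type and less RNA per cell cannot be told apart.

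No gene differed between the formulas at the threshold of edgeR's quasi-likelihood test, an adjusted p under 0.05 by the Benjamini-Hochberg method. Of 13381 tested genes 0% were called, and the smallest adjusted p was 0.139. At an unadjusted p under 0.05, 13.9% of genes stood out (1858), with 693 higher in UW (5.18%) and 1165 lower (8.71%). All 4 UW animals lay above all 4 NIA animals for 3.29% of genes and below them for 3.06%. The median log2 fold change of all tested genes, UW minus NIA, was -0.004, with 49.7% above 0 and 50.3% below. These shares over all genes are the background of each list count given below. Other tests on the same counts gave other numbers. DESeq2 called 65 genes higher and 310 lower, and limma-voom with quality weights, which gives less weight to libraries that scatter, called 518 higher and 398 lower. The calls of these tests had 110 genes in common, 29.3% of those of DESeq2 and 12% of those of limma-voom. Leaving out NIA replicate 2, edgeR called 12 genes higher and 205 lower. Leaving out chow replicate 3, NIA replicates 1 and 4 and mNIA replicate 2, the 4 libraries of low weight, it called 1139 higher and 488 lower. The weights came from these same counts and mark libraries that scatter. Leaving such libraries out can lower the estimated spread, so nothing is read from that rise. With NIA replicates 1 and 4 alone left out, edgeR called 0, with 1691 genes at an unadjusted p under 0.05. Both fits hold the same UW and NIA animals, and differ only in the chow and mNIA animals left out.

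The 12 genes lower in UW with the smallest p had log2 fold changes of -1.25 to -2.89, all with an adjusted p of 0.139 in edgeR's test. NIA replicate 4 was the highest of the 8 libraries for all 12 genes. For 5 of them (Hpf1, Ubald2, Ift20, Plau and Minos1) the groups did not overlap, and 7 were run genes, against 2.99% of all tested genes with a transcript. The runs are shown because NIA replicates 1 and 4 stood apart on the share of counts on such genes. Each line gives 30 bases of a GENCODE vM21 transcript on mm10, 5′ to 3′, with the run in capitals as far as the window holds it. All 4 lie in the 3′ UTR. They belong to Mc1r (a run of 37 A, chr8:123408960-123408989, plus strand), Ift20 (28 A, chr11:78541468-78541497, plus strand), Plau (38 T, chr14:20843194-20843223, plus strand) and Hsf2 (29 T, chr10:57512452-57512481, plus strand).
Mc1r: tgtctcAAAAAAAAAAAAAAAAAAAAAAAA
Ift20: gaaggcAAAAAAAAAAAAAAAAAAAAAAAA
Plau: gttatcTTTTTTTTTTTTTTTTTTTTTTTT
Hsf2: attggaTTTTTTTTTTTTTTTTTTTTTTTT

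Mc1r, which encodes the melanocortin receptor known from pigment cells, read 840, 110, 168 and 1028 CPM in NIA replicates 1 to 4 and 64.4, 58.9, 116 and 62.5 CPM in UW. The NIA values fell into a high pair, replicates 1 and 4, and a pair that met the UW range, since UW replicate 3 lay above NIA replicate 2. Its log2 fold change was -2.83 ± 0.64 (SE), and -0.85 without NIA replicates 1 and 4. Pou3f2, a transcription factor of neural cells, read 514, 58.4, 94.5 and 654 CPM in NIA and 37.9, 31.4, 69.9 and 38.1 CPM in UW, with the same pair of NIA libraries far above the rest. Nlgn1, an adhesion protein of synapses, read 876, 106, 185 and 1113 CPM in NIA and 61.8, 73.5, 127 and 78.8 CPM in UW. Cdh6 (a cadherin), Cldn19 (a tight junction claudin), Hsf2 (a heat shock transcription factor), Plau (urokinase) and Ptchd1 (a patched-domain membrane protein) had the same split among the NIA animals. Bhlhe41, a repressor of the circadian clock whose transcript holds a run of 39 T, read 3640, 483, 768 and 4481 CPM in NIA and 310, 369, 577 and 391 CPM in UW. Run genes and split genes were not the same set. Pou3f2 and Ptchd1 had the split but are not run genes, their longest runs being 16 T and 7 A. Ift20, a run gene, was spread more evenly over the NIA animals. The part of the runs in these differences was not tested.

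Hpf1, Ubald2, Ift20 and Minos1 were more evenly spread over the NIA animals. Hpf1 encodes the cofactor that directs PARP1 to serine residues, and is at chr8:60890393-60907582. It read 36.5, 21.6, 28.3 and 53.3 CPM in NIA and 13.7, 15.7, 16.4 and 11.3 CPM in UW, so each UW animal lay below each NIA animal. Its p was the smallest of all named genes, with a log2 fold change of -1.25 ± 0.23 (95% confidence interval -1.74 to -0.75). Without NIA replicates 1 and 4 it was -0.77. Mean Hpf1 was 20.8 ± 2.26 CPM (SD) in chow and 22.2 ± 2.56 in mNIA, between the formulas. Ubald2, which encodes a protein with a UBA-like domain, read 10.5, 16.5, 21.3 and 32.7 CPM in NIA and 8.84, 3.46, 4.87 and 2.52 CPM in UW. Ift20, a carrier of cargo to the cilium, read 60.8, 41.7, 48.4 and 133 CPM in NIA and 24.1, 27.3, 27.6 and 23.6 CPM in UW. Neither gene overlapped between the groups, and without NIA replicates 1 and 4 their log2 fold changes were -1.86 and -0.78. Minos1, a subunit of the complex that shapes mitochondrial cristae, read 340, 208, 245 and 888 CPM in NIA and 129, 172, 161 and 138 CPM in UW.

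**Figure D2:**
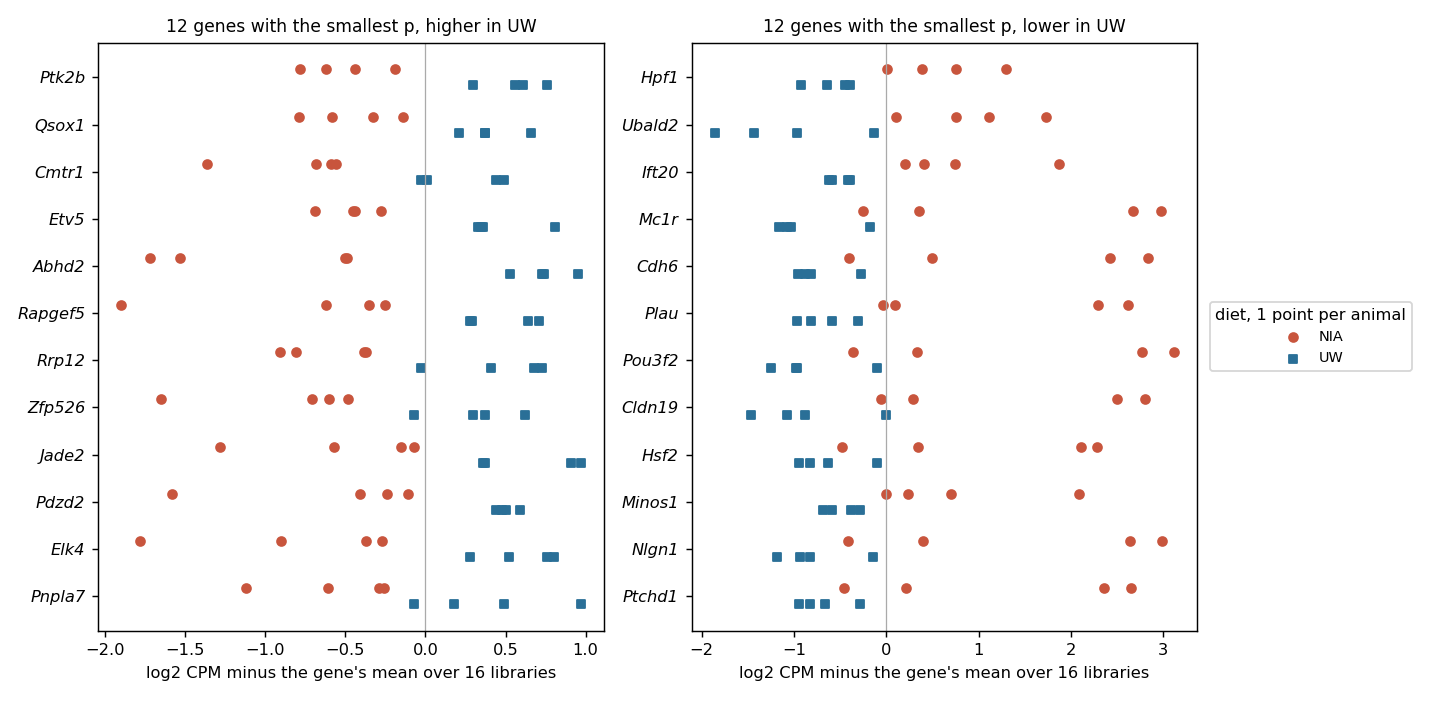
Log2 CPM minus the gene's mean over 16 libraries (x axis) for the 12 genes of each direction with the smallest p; each point is 1 animal. On the left the groups do not overlap for any of the 12 genes, and on the right NIA splits into a high and a low pair for most genes, NIA replicate 4 being the highest of 8 for all 12.

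The 12 genes higher in UW with the smallest p had log2 fold changes of 0.82 to 1.65, and all had an adjusted p of 0.139 in edgeR's test. Ptk2b, a calcium-dependent tyrosine kinase at chr14:66153257-66281053, read 5.45, 4.78, 6.53 and 4.27 CPM in NIA and 9.25, 12.8, 11.5 and 11.1 CPM in UW. Its log2 fold change was 1.06 ± 0.23 (SE), and 1.05 without NIA replicates 1 and 4. Etv5, an ETS transcription factor at chr16:22381313-22439571, read 8.39, 10, 11.2 and 9.96 CPM in NIA and 17.4, 17.5, 24.1 and 17.2 CPM in UW. The UW animals were above all NIA animals for both genes, and for the other 10 as well, with the choice by p favouring such genes. Qsox1, an oxidase that forms disulfide bonds in secreted proteins, read 15.9, 25.3, 22.1 and 18.5 CPM in NIA and 35.9, 44.0, 36.0 and 32.1 CPM in UW. Abhd2, a lipid hydrolase at chr7:79273266-79361602, had the widest difference of the 12. It read 4.61, 4.57, 1.84 and 2.13 CPM in NIA and 11.1, 12.8, 9.54 and 11 CPM in UW, a log2 fold change of 1.65 ± 0.37 (SE).

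The remaining 8 of these genes act in RNA capping (Cmtr1), ribosome assembly (Rrp12), Rap signalling (Rapgef5), chromatin (Jade2), ETS-driven transcription (Elk4) and lysophospholipid breakdown (Pnpla7), or encode a PDZ protein (Pdzd2) and a zinc finger protein (Zfp526). Their log2 fold changes were 0.92 to 1.27. NIA replicate 4 was the lowest of the 8 libraries for 9 of the 12 genes. Without NIA replicates 1 and 4 all 12 had the same direction, at 0.66 to 1.66, and all 12 of the lower genes did, at -0.54 to -1.86. The mNIA mean lay between UW and NIA for 11 of the higher and 12 of the lower genes, and so did the chow mean. DESeq2 called 7 of the 12 higher and 11 of the 12 lower genes, against 0.486% and 2.32% of all tested genes in those directions. Limma-voom called 12 and 4, against 3.87% and 2.97%. Without the 4 libraries of low weight, edgeR called 12 and 4 of them, against 8.27% and 3.54%, and without NIA replicate 2 it called 4 and 12, against 0.0891% and 1.52%. These genes were chosen from the same contrast, so nothing is read from those counts.

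Transcript length moved with the direction of the difference over the whole table. The 1165 genes lower in UW at an unadjusted p under 0.05 had a median transcript length of 971 bases, the 693 higher genes 3722 bases, and all tested genes 2182 bases. A gene's length here is the median over its annotated protein-coding transcripts, short ones included, so it can fall well below that of its longest transcript. Myh6 counted as 542 bases, C3 as 554 and Lamb2 as 409, so some genes may sit in too short a bin. In 5 bins of about equal size, from the shortest to the longest, the median log2 fold change was -0.27, -0.15, -0.01, 0.10 and 0.24. The order was the same without NIA replicate 4 (-0.15, -0.06, 0.01, 0.08 and 0.17) and without NIA replicates 1 and 4 (-0.19, -0.07, 0.03, 0.12 and 0.24). NIA replicate 4 was the highest of the 8 libraries for 88.2% of the 1165 lower genes and for 26.4% of all genes. It was the lowest for 78.4% of the 693 higher genes and for 37.1% of all. The part of transcript length in the gene differences was not tested. Median length is given below for the oxidative phosphorylation, cytosolic ribosomal and basement membrane lists only. Other lists also hold short or long transcripts, and the part of length in their medians was not tested either.

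**Figure D3:**
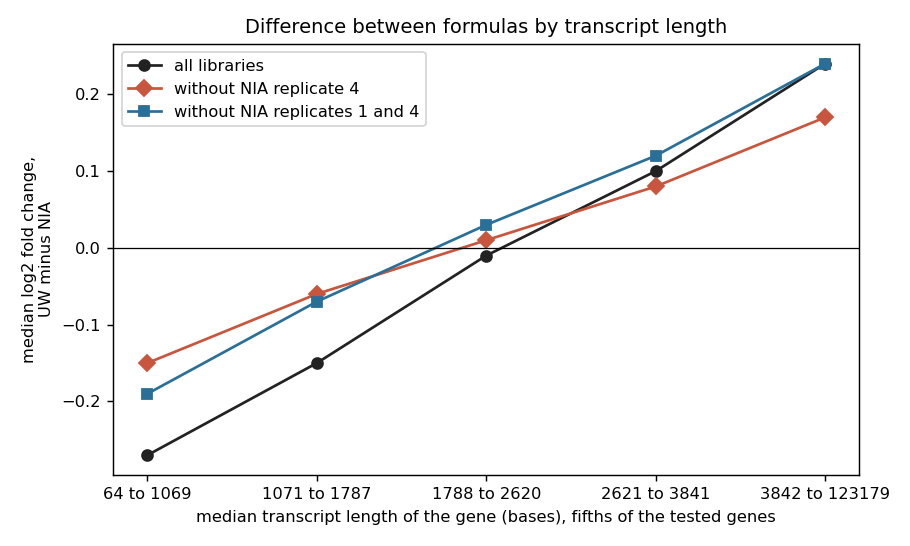
Median log2 fold change, UW minus NIA (y axis), in 5 bins of the tested genes by median transcript length in bases (x axis), with all libraries and with NIA replicate 4 or NIA replicates 1 and 4 left out. The median goes from -0.27 in the shortest bin to 0.24 in the longest, and it is ordered by length in each of the 3 fits.

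Genes of the mitochondrial and ribosomal machinery, which encode small proteins in short transcripts, were lower in UW as groups. Oxidative phosphorylation subunits make up the respiratory chain and ATP synthase. Of the 60 nuclear-encoded ones tested, 56 were lower in UW, against 50.3% of all genes. At an unadjusted p under 0.05 there were 45 lower members, against 8.71% of all genes, and 17 had UW below NIA in all animals, against 3.06%. None passed the adjusted threshold. Their median log2 fold change was -1.04, against -0.004 for all genes, and their median transcript length was 637 bases. Without NIA replicate 4 the median was -0.45, and without NIA replicates 1 and 4 it was -0.50 with 55 of 60 lower, where 49.4% of all genes were lower and 50.6% higher. The list's level, the median over its genes of log2 CPM minus each gene's mean over 16 libraries, was -0.10, -0.08, 0.37 and 1.65 in NIA replicates 1 to 4 and -0.51, -0.10, -0.23 and -0.48 in UW. NIA replicates 1 and 2 thus lay at or just above UW replicate 2, and NIA replicate 4 far above all others. Cox7a1, a cytochrome c oxidase subunit of heart and muscle, read 809, 579, 761 and 3613 CPM in NIA and 344, 462, 475 and 370 CPM in UW. The groups did not overlap. Its log2 fold change was -1.80 ± 0.46 (SE), and -0.77 without NIA replicate 4. Cox6c and Ndufb2, subunits of complexes IV and I, did not overlap between the groups either, at -1.52 and -1.47, which were -0.83 and -0.81 without NIA replicate 4.

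Cytosolic ribosomal proteins were also highest in NIA replicate 4, with list levels of -0.43, 0.27, 0.34 and 1.48 in NIA and -0.14, -0.02, -0.24 and -0.54 in UW. NIA replicate 1 lay below UW replicates 1, 2 and 3. Of 46 tested, 45 were lower in UW, 34 at an unadjusted p under 0.05, with a median of -0.84 and a median transcript length of 756.75 bases. The median was -0.32 without NIA replicate 4 and -0.48 without NIA replicates 1 and 4, with 46 of 46 lower in both fits, against 49% and 49.4% of all genes. Rpl35 read 351, 255, 328 and 1479 CPM in NIA and 220, 221, 232 and 166 CPM in UW, and did not overlap, at -1.52 ± 0.45 (SE), which was -0.54 without NIA replicate 4. Processed copies of ribosomal protein genes can share their reads, so single members are uncertain. Of all genes 50.3% were lower, and 8.71% were lower at an unadjusted p under 0.05. Mitochondrial ribosomal proteins had 33 of 36 members lower (17 at that p, median -0.54). Subunits of the constitutive proteasome, which degrades tagged proteins, had 27 of 30 (10, median -0.39). Without NIA replicate 4 these medians were -0.18 and -0.10, and without NIA replicates 1 and 4 they were -0.22 and -0.09. Hspe1, the mitochondrial chaperonin cofactor, read 187, 110, 106 and 661 CPM in NIA and 79.5, 111, 109 and 105 CPM in UW. NIA replicates 2 and 3 lay inside the UW range, and without NIA replicates 1 and 4 its log2 fold change was -0.08 in place of -1.38.

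The lists of the remaining mitochondrial pathways had medians close to 0. Genes of the citric acid cycle and pyruvate oxidation had 11 of 26 members higher in UW (median -0.06), those of branched-chain amino acid breakdown 6 of 19 (median -0.06), and those of fatty acid oxidation and PPAR targets 21 of 36 (median 0.06). Without NIA replicates 1 and 4 the counts were 22 of 26, 17 of 19 and 30 of 36, with medians of 0.40, 0.41 and 0.37. The direction of the first pair of lists thus depended on these libraries, and without UW replicate 1 both medians were 0.07. The fatty acid oxidation median was -0.18 without UW replicate 3. Cpt1a, which carries long-chain fatty acids into mitochondria, read 65.0, 51.3, 56.6 and 23.5 CPM in NIA and 69.7, 59.1, 80.2 and 67.8 CPM in UW, with 1 NIA animal inside the UW range. Pdk4, the kinase that shuts off pyruvate oxidation when fat is burned, spread over 185 to 1156 CPM in NIA and 231 to 2441 CPM in UW. UW replicate 3 held the highest level, and without it the log2 fold change of Pdk4 was -0.37 in place of 0.77. Ucp3, a PPAR target, also peaked there at 154 CPM against 43.0 to 79.4 in the other UW animals. Angptl4, an inhibitor of lipoprotein lipase, differed by 0.01 ± 0.48 on the log2 scale.

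**Figure D4:**
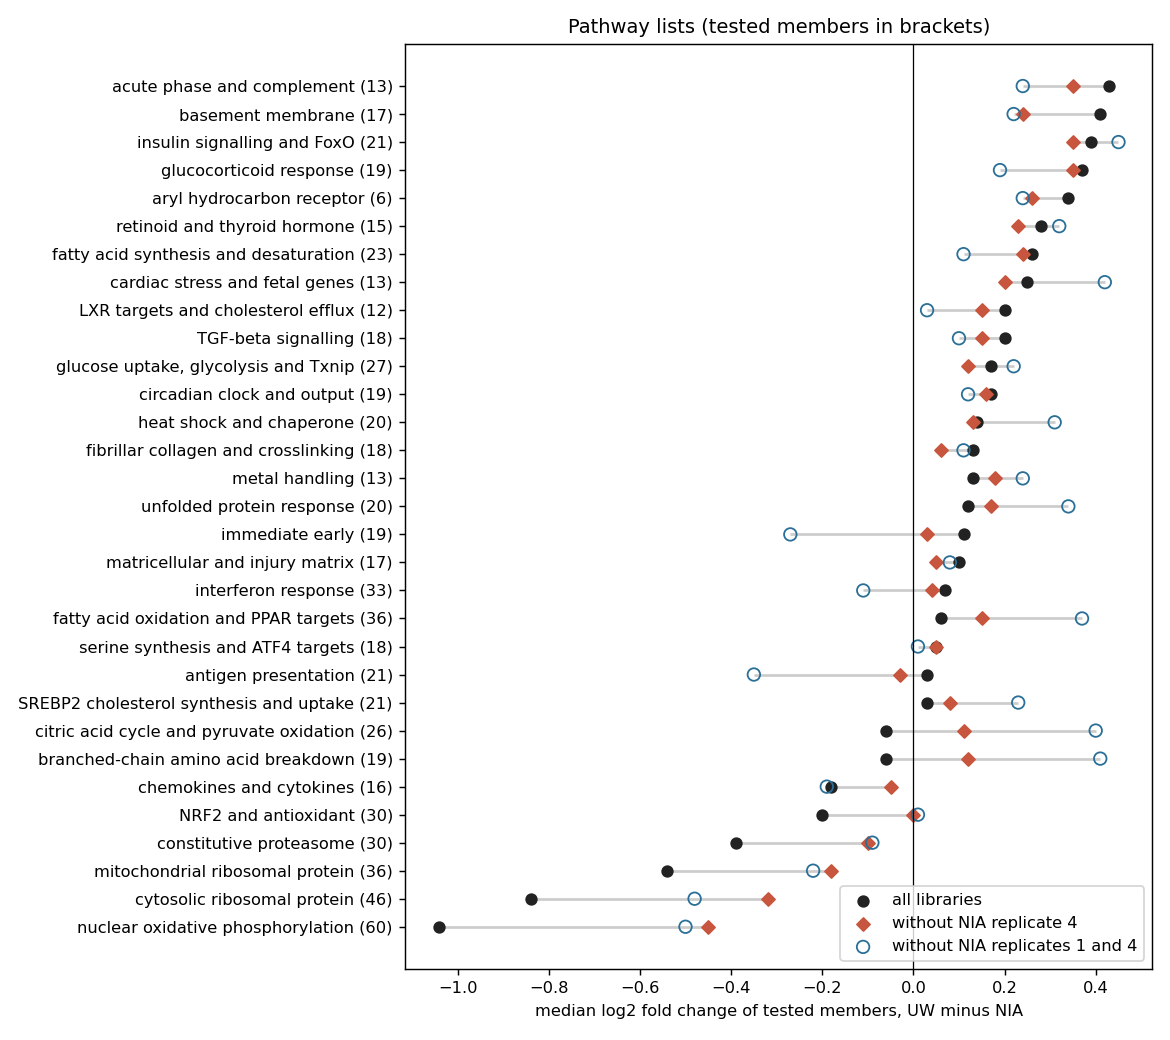
Median log2 fold change of the tested members, UW minus NIA (x axis), for 31 pathway lists with all libraries (black), without NIA replicate 4 (red) and without NIA replicates 1 and 4 (open). Oxidative phosphorylation (-1.04) and cytosolic ribosomal proteins (-0.84) lie farthest from 0, and acute phase and complement genes have the highest median, 0.43.

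Genes that make fatty acids leaned higher in UW. Of 23 tested, 17 were higher, 6 of them at an unadjusted p under 0.05 and 0 lower at it. Over all genes the shares were 49.7%, 5.18% and 8.71%. The list's median was 0.26. The median was 0.24 without NIA replicate 4 and 0.11 without NIA replicates 1 and 4. Acaca, the carboxylase that makes malonyl-CoA for fatty acid synthesis, is at chr11:84195438-84401652. It read 10.5, 10.5, 12.9 and 0.711 CPM in NIA, the last being 1 count, and 18.4, 26.1, 18.1 and 23.5 CPM in UW. The groups did not overlap. Its log2 fold change was 1.16 ± 0.32 (SE, edgeR adjusted p 0.147), and 0.92 without NIA replicates 1 and 4. Fasn, the fatty acid synthase, read 16.8, 14.6, 21.9 and 9.25 CPM in NIA and 22.1, 38.1, 23.8 and 26.9 CPM in UW, a log2 fold change of 0.78 ± 0.25. The groups did not overlap, though NIA replicate 3 came close to UW replicate 1. Acacb, the carboxylase whose malonyl-CoA restrains fatty acid oxidation, read 134 to 271 CPM in NIA and 249 to 473 CPM in UW, and overlapped. Scd1, the stearoyl-CoA desaturase, differed by 0.05 ± 0.17. Plin2, a lipid droplet coat protein, read 48.7, 47.1, 48.7 and 39.8 CPM in NIA and 57.8, 61.5, 94.6 and 61.5 CPM in UW, without overlap.

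Sterol genes were less uniform. SREBP2 targets and other genes of cholesterol synthesis and uptake had 13 of 21 members higher (median 0.03, 2 at an unadjusted p under 0.05), and the median was -0.03 without UW replicate 4. Srebf2, the transcription factor of that pathway, read 13.4, 19.0, 14.6 and 7.11 CPM in NIA and 27.9, 23.8, 19.9 and 22.9 CPM in UW. Each UW animal lay above each NIA animal, by a log2 fold change of 0.72 ± 0.22 (SE, edgeR adjusted p 0.189). The list of LXR targets and cholesterol efflux genes had 8 of 12 members higher (median 0.20, and 0.03 without NIA replicates 1 and 4). It also holds the LXR genes Nr1h2 and Nr1h3, and not all of its members export cholesterol. Abca1, the cholesterol exporter, read 28.4 to 56.6 CPM in NIA and 52.4 to 67.6 CPM in UW, and Mylip, a ubiquitin ligase, 20.6 to 31.0 and 25.8 to 43.8 CPM. Both overlapped, with log2 fold changes of 0.52 ± 0.20 and 0.41 ± 0.18. Srebf1, the fatty acid counterpart of Srebf2, overlapped too, at 0.47 ± 0.22.

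Insulin signalling and FoxO genes had 17 of 21 members higher in UW, 4 at an unadjusted p under 0.05 and 1 lower at it. Over all genes the shares were 49.7%, 5.18% and 8.71%. The median was 0.39, and 0.45 without NIA replicates 1 and 4. Foxo3, a transcription factor that insulin keeps out of the nucleus, read 11.7, 5.01, 2.84 and 2.84 CPM in NIA and 11.9, 23.6, 16.9 and 30.1 CPM in UW. The groups did not overlap, by the narrow gap between NIA replicate 1 and UW replicate 1, and the log2 fold change was 1.94 ± 0.56 (SE, edgeR adjusted p 0.169). Igf1r, the receptor of insulin-like growth factor 1, read 28.5, 40.5, 40.8 and 18.5 CPM in NIA and 47.4, 42.2, 48.7 and 46.9 CPM in UW, at 0.49 ± 0.21. The member lower at that p was Gsk3b, the kinase that restrains glycogen synthesis and a run gene, at 819, 140, 231 and 908 CPM in NIA and 139, 160, 201 and 186 CPM in UW. Its log2 fold change was -1.61 ± 0.47, and -0.09 without NIA replicates 1 and 4, the high pair. Glucose uptake and glycolysis genes had 20 of 27 members higher (median 0.17, 0 higher and 2 lower at an unadjusted p under 0.05). Txnip, which glucose induces, differed by 0.37 ± 0.29.

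Targets of ATF4, the transcription factor of the amino acid stress response, split. The list of these and of serine synthesis genes had 10 of 18 members higher, 3 higher and 2 lower at an unadjusted p under 0.05. Over all genes the shares were 49.7%, 5.18% and 8.71%. The list's median was 0.05, and -0.02 without UW replicate 1 or NIA replicate 1. The 3 higher at that p were Sesn2, Chac1 and Slc7a5, and for each the groups did not overlap. Sesn2, a leucine sensor that restrains mTORC1, read 0.839, 1.56, 1.67 and 0.711 CPM in NIA and 3.35, 2.24, 3.12 and 2.82 CPM in UW, a log2 fold change of 1.04 ± 0.33. Chac1, which breaks down glutathione, read 1.68, 1.75, 1.67 and 2.13 CPM in NIA and 2.55, 5.09, 3.89 and 3.86 CPM in UW, at 1.11 ± 0.40. Slc7a5, the leucine transporter, read 2.10, 3.96, 2.84 and 2.13 CPM in NIA and 6.30, 7.33, 4.48 and 4.90 CPM in UW, at 0.89 ± 0.33. Their adjusted p was 0.192, 0.233 and 0.236 in edgeR's test. These are low levels, where 1 or a few counts make up the value in NIA replicate 4.

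Glucocorticoid response genes had 14 of 19 members higher in UW (median 0.37), but not in every animal. The list's level was -0.25, 0.73, 0.89 and -0.05 in UW replicates 1 to 4 and -0.17, -0.02, 0.42 and 0.00 in NIA, so UW replicates 2 and 3 carried the difference. Without UW replicate 3 the median was -0.06. Fkbp5, a chaperone that glucocorticoids induce, read 17.2, 15.4, 15.1 and 6.40 CPM in NIA and 14.6, 27.1, 42.2 and 16.5 CPM in UW, with UW replicates 1 and 4 among the NIA animals. Mt2, a metallothionein that responds to both metals and glucocorticoids, read 8.81, 9.08, 13.2 and 14.2 CPM in NIA and 8.04, 31.2, 44.4 and 11.3 CPM in UW. Its relative Mt1 differed by -0.08 ± 0.33. Cdkn1a, the p21 cell cycle inhibitor, was highest in the same pair of UW animals, at 41.2 and 52.6 CPM against 15.6 to 26.8 CPM in the other 6. The clock genes had 13 of 19 members higher with a median of 0.17, and Dbp, a clock output gene, differed by 0.09 ± 0.27.

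Acute phase and complement genes leaned higher in UW, with 11 of 13 members higher and 3 at an unadjusted p under 0.05. Over all genes the shares were 49.7% and 5.18%. The list's median was 0.43. The median was 0.19 without UW replicate 1, 0.35 without NIA replicate 4 and 0.24 without NIA replicates 1 and 4. In the last pair of fits 11 of 13 were higher, against 51% and 50.6% of all genes. List levels were 0.76, 0.63, 0.10 and -0.11 in UW and -0.38, 0.02, 0.26 and -0.13 in NIA, so UW replicates 1 and 2 were highest and the groups overlapped. Serpina3n, a protease inhibitor of the acute phase, is at chr12:104406708-104414330. It read 18.5, 16.4, 17.6 and 6.40 CPM in NIA and 30.7, 56.8, 36.0 and 20.5 CPM in UW, without overlap. Its log2 fold change was 1.23 ± 0.31 (SE, 95% confidence interval 0.57 to 1.89, edgeR adjusted p 0.139), and 1.11 without NIA replicates 1 and 4. The chow mean was 18.3 ± 3.43 CPM (SD) and the mNIA mean 12.5 ± 4.08, both near NIA. C3, the central complement component, read 146, 171, 242 and 71.1 CPM in NIA and 561, 463, 204 and 220 CPM in UW. C4b, of the classical complement pathway, read 4.61, 21.1, 30.8 and 4.27 CPM in NIA and 59.8, 58.9, 19.9 and 15.6 CPM in UW. Both were highest in UW replicates 1 and 2, while UW replicates 3 and 4 lay within the NIA range, at log2 fold changes of 1.19 ± 0.35 and 1.19 ± 0.51. Macrophage markers were also highest in UW replicates 1 and 2 among the UW animals, with list levels of 0.82 and 0.51 against -0.22 and -0.20, and their part in these values was not tested.

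Interferon response genes had 19 of 33 members higher (median 0.07) and antigen presentation genes 13 of 21 (median 0.03), with 0 members of either at an unadjusted p under 0.05. Without NIA replicates 1 and 4 the direction turned for both: 24 of 33 and 20 of 21 members were lower, with medians of -0.11 and -0.35. It also turned without UW replicate 1 (-0.14 and -0.27) and without NIA replicate 1 (-0.10 and -0.20), and for antigen presentation without NIA replicate 4 (-0.03). The antigen presentation level was -0.88, 0.30, 0.69 and -0.51 in NIA and 0.72, 0.11, -0.43 and -0.39 in UW, a spread within each diet wider than the difference between them.

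**Figure D5:**
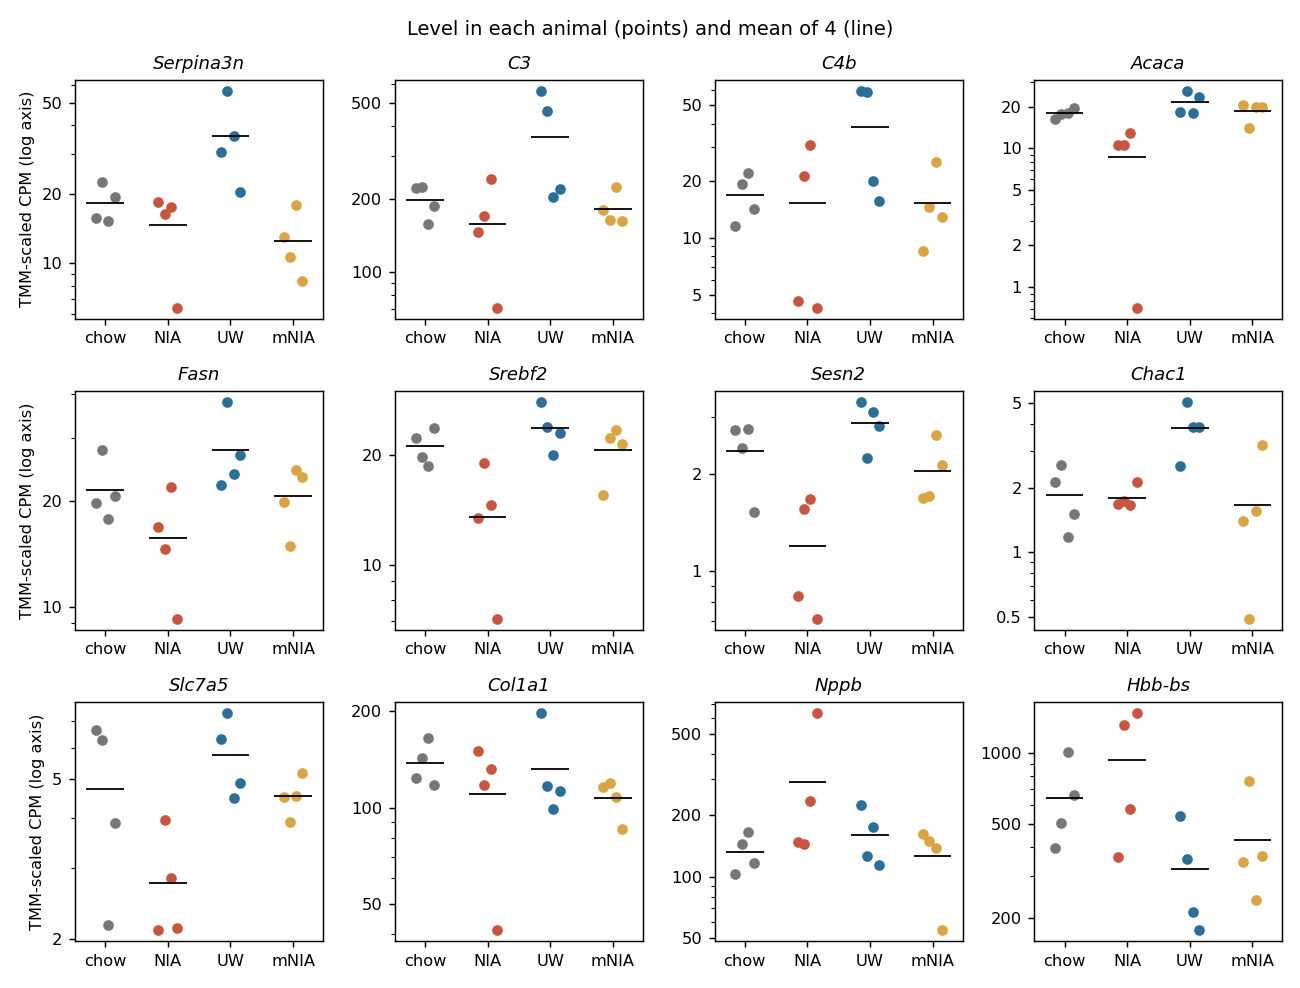
TMM-scaled CPM (log axis) of 12 genes in each animal of the 4 diets; points are animals and lines are means of 4. Serpina3n, Acaca, Fasn, Srebf2, Sesn2, Chac1 and Slc7a5 are higher in all 4 UW than in all 4 NIA animals, as are 3.29% of all tested genes. C3 and C4b are highest in 2 UW animals, at 561 and 463 CPM for C3.

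Cyp1a1, the xenobiotic-metabolising enzyme that the aryl hydrocarbon receptor induces, was too low for the filter and was not among the 13381 genes. Its counts were 86, 23, 0 and 32 in UW replicates 1 to 4, and 0, 19, 0 and 0 in NIA. As CPM of the unscaled library total that is 14.4, 4.71, 0 and 4.86 in UW and 0.302 in the deep NIA replicate 2. A count of 0 allows up to 0.954, 0.523 and 1.32 CPM in NIA replicates 1, 3 and 4 and 0.594 in UW replicate 3, for counting error only, so 3 of 4 UW animals lay above every NIA animal and the last did not. Chow libraries held 0 to 4 counts and all 4 mNIA libraries held 0. With no filter its edgeR adjusted p was 0.118. Without UW replicate 3, the UW animal at 0, it passed the filter and its adjusted p was 0.0421. Its passage through the filter then rests on the UW animals in which it is high, so nothing is read from that value. The other members of the receptor's list were 5 of 6 higher, with a median of 0.34 and 0 at an unadjusted p under 0.05. Gsta1, a glutathione S-transferase of the NRF2 list, went the other way. It read 5.03, 3.76, 5.86 and 11.4 CPM in NIA and 1.61, 1.63, 3.12 and 2.23 CPM in UW, without overlap, at -1.45 ± 0.36 (SE, edgeR adjusted p 0.139). Near-identical family members can share its reads. The chow mean was 5.36 ± 1.5 CPM (SD) and the mNIA mean 2.17 ± 0.473. Of the 30 NRF2 and antioxidant genes 23 were lower (median -0.20), and 15 of 30 without NIA replicates 1 and 4 (median 0.01). Gsta4, of the same family, read 47.4 to 77.0 CPM in UW and 64.2 to 198 CPM in NIA.

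Collagen and matrix genes bear on fibrosis, and none passed the threshold. Fibrillar collagens and their crosslinking enzymes had 14 of 18 members higher in UW, with a median of 0.13. The median was 0.04 without UW replicate 1, 0.06 without NIA replicate 4, and 0.16 to 0.33 without UW replicates 2, 3 or 4 or NIA replicates 2 or 3, the highest without NIA replicate 3. Only Plod1, a collagen lysyl hydroxylase, had an unadjusted p under 0.05, at 61.2, 75.5, 80.5 and 60.5 CPM in NIA and 105, 93.1, 81.4 and 93.8 CPM in UW. Col1a1, the main chain of type I collagen, read 150, 118, 132 and 41.3 CPM in NIA and 198, 117, 98.7 and 113 CPM in UW. The groups overlapped, and the log2 fold change was 0.25 ± 0.31 (95% confidence interval -0.40 to 0.89). Col3a1, of type III collagen, read 254, 227, 240 and 150 CPM in NIA and 457, 222, 202 and 245 CPM in UW, at 0.37 ± 0.26 with an interval of -0.18 to 0.92. In both genes UW replicate 1 was the highest and NIA replicate 4 the lowest of the 8, and the other 6 animals were mixed. Without UW replicate 1 the values were -0.02 and 0.03. That animal also had the highest fibroblast marker level of the 8, 0.58 against -0.36 to 0.23 in the others. Postn, made by activated fibroblasts, differed by 0.10 ± 0.21.

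Basement membrane genes had 14 of 17 members higher (median 0.41, 2 at an unadjusted p under 0.05). Their level was -1.51 in NIA replicate 4 against -0.18, -0.16 and 0.17 in the other NIA animals and 0.59, -0.08, -0.09 and 0.26 in UW. Their transcripts are long, with a median of 4791 bases, and without NIA replicate 4 the median fold was 0.24. Col4a1, a chain of type IV collagen, read 479, 432, 608 and 173 CPM in NIA and 981, 557, 541 and 662 CPM in UW. Lama4, a laminin chain of vessels, read 73.0, 98.5, 118 and 36.3 CPM in NIA and 163, 110, 108 and 126 CPM in UW. Both overlapped between the groups. Lamb2, another laminin chain, did not, at 142 to 292 CPM in NIA and 294 to 347 CPM in UW, while Hspg2, which encodes perlecan, spread from 83.2 to 618 CPM and from 458 to 784 CPM. Of the matricellular genes, which encode injury-related matrix proteins, 10 of 17 were higher (median 0.10, and -0.05 without UW replicate 1). Among them Ctgf, a target of TGF-beta and YAP, read 54.9, 42.0, 65.6 and 51.2 CPM in NIA and 65.7, 79.0, 148 and 53.6 CPM in UW, at 0.70 ± 0.28, and 0.31 without UW replicate 3. Thbs1 and Fn1, encoding thrombospondin 1 and fibronectin, were 0.87 ± 0.33 and 0.80 ± 0.35. All 3 overlapped. TGF-beta signalling genes had 14 of 18 members higher, with a median of 0.20.

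The list of cardiac stress and fetal genes had 10 of 13 members higher (median 0.25, and 0.42 without NIA replicates 1 and 4). It also holds Myh6, an adult gene that is among the higher members, and Atp2a2. The count and median thus mix fetal and adult genes and give no direction for the fetal programme. Hcn2, a pacemaker channel, is not a member of this list but of that of retinoid and thyroid hormone genes. It read 13.8, 10.6, 9.04 and 10.7 CPM in NIA and 19.7, 20, 14.8 and 22.4 CPM in UW. The groups did not overlap, at 0.82 ± 0.29 (SE, edgeR adjusted p 0.220). Acta1, the skeletal actin re-expressed in loaded hearts, read 184, 149, 212 and 179 CPM in NIA and 181, 387, 187 and 396 CPM in UW, so 2 UW animals were high and 2 were not. Nppa, the atrial natriuretic peptide, read 62.9 to 133 CPM in NIA and 82.8 to 161 CPM in UW. Nppb, the B-type peptide, read 148, 145, 235 and 633 CPM in NIA and 225, 127, 175 and 114 CPM in UW. The difference in Nppb, -0.85 ± 0.42, rested on NIA replicate 4 and was -0.11 without it. Myh6, the adult myosin heavy chain, ranged over 5356 to 39844 CPM in NIA and 16673 to 28722 CPM in UW, and Myh7, the fetal one, over 988 to 5224 and 2195 to 4112 CPM. Both spread farther within NIA than between the diets, at 0.39 ± 0.48 and 0.17 ± 0.41. Myl2, the ventricular light chain, read 34373 CPM in NIA replicate 4 and 7700 to 15035 CPM in the other 7 animals.

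Markers of blood cells were lower in UW. Of 13 tested erythrocyte and platelet genes 10 were lower, 6 at an unadjusted p under 0.05, against 50.3% and 8.71% of all genes. The list's median was -0.76. The median was -0.86 without NIA replicate 4 and -1.05 without NIA replicates 1 and 4, so it did not shrink with these libraries left out. Levels were -0.43, 1.10, 0.15 and 0.27 in NIA and 0.24, -0.06, -0.70 and -0.98 in UW, which overlap. Hbb-bs, adult beta-globin, whose reads its near-identical copy can share, read 362, 1317, 581 and 1476 CPM in NIA and 540, 355, 212 and 178 CPM in UW, at -1.54 ± 0.48. Bpgm, the erythrocyte enzyme that makes 2,3-bisphosphoglycerate, read 60, 73.4, 57.1 and 59.0 CPM in NIA and 47.8, 49.9, 32.3 and 31.0 CPM in UW. Its groups did not overlap, and its log2 fold change was -0.64 ± 0.21 (SE, edgeR adjusted p 0.194). The blood content of the samples was not measured apart from these genes.

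Other cell type lists had medians smaller in size than that of blood cells with all libraries. Schwann cell and neuron markers had 4 of 4 members lower (median -0.63), 1 of them at an unadjusted p under 0.05. Without NIA replicate 2 their median was -0.68 and that of blood cells -0.53, so this order depended on the libraries. Lymphocyte markers had 4 of 5 lower (median -0.41). Ventricular cardiomyocyte markers had 8 of 14 lower (median -0.26, and 0.24 without NIA replicates 1 and 4), 3 of them at that p. Endothelial markers had 10 of 18 higher (median 0.12) and fibroblast markers 8 of 15 (median 0.01), macrophage markers 12 of 16 (median 0.12) and smooth muscle and pericyte markers 9 of 15 (median 0.27). Without NIA replicates 1 and 4 the medians of these 4 lists were -0.17, -0.13, -0.04 and -0.06, and without UW replicate 1 those of fibroblast and macrophage markers were -0.17 and -0.11. Ptprb, an endothelial phosphatase, read 177, 232, 217 and 54.1 CPM in NIA and 411, 217, 249 and 310 CPM in UW. Cyp26b1, which degrades retinoic acid, read 24.9 CPM in UW replicate 1 against 4.52 to 14.2 CPM in the other 7 animals. Slc39a14, a zinc and iron importer, read 42.5 to 45.3 CPM in NIA and 40.6, 81.1, 62.7 and 78.8 CPM in UW, so 3 of 4 UW animals lay above all NIA animals. Of the 33 genes fixed by name for this comparison 32 were tested and 0 passed, at adjusted p values of 0.139 to 0.996 in edgeR's test. Of these 26 were higher in UW and 6 lower, against 49.7% and 50.3% of all genes, and 9 and 4 of them had an unadjusted p under 0.05, against 5.18% and 8.71%.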

How the data were processed

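Bulk RNA was sequenced from 16 ventricle samples, 4 animals per diet, from poly-A selected, strand-specific libraries of RNA with an integrity number above 7, read as single reads of 75 bases, per the labels' protocols. The authors deposited 1 table of expected counts per gene, not scaled, with 13% to 52.4% of values not whole, by library. Per the submitters' processing notes BWA, DESeq2 and mm10 were used, with no role or version. The counting program, its strand setting and the gene models are not given in the sources used here. The table holds 17737 genes, all with a sum of at least 10. Positions are those of the file, counted from 1.

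The expected counts were rounded to whole numbers. In R 4.3.3, edgeR 4.0.16 kept 13381 genes by filterByExpr with diet as group and scaled libraries by TMM. It fitted 1 mean per diet over all 16 libraries by robust quasi-likelihood, with no covariate, as no batch is labelled. Tests of UW minus NIA were 2-sided, with Benjamini-Hochberg adjustment over all tested genes and a threshold of 0.05. Standard errors were taken from the fold change and its F value. Log2 CPM used a prior count of 2. Transcript lengths (the median over a gene's protein-coding transcripts) and A or T runs came from GENCODE vM21, on mm10, with 98.4% of genes matched by symbol. DESeq2 1.42.0 and limma 3.58.1 (voom with quality weights) served as alternatives, besides other scalings and filters, the 8 libraries alone, a replicate block, NIA replicate 2 thinned to 5053279 counts, and libraries left out. Leaving out run genes was added after seeing the data. The tests were checked on simulated data.

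Genes named are the 12 of each direction with the smallest p, a mean of at least 1 CPM and a symbol other than a clone name, all of which missed the threshold, the 3 members of smallest p of each of 44 lists, as far as the text uses them, and 33 fixed genes. The comparison, lists and genes were chosen with earlier results of these data known, so no list count is independent support. Lists were not tested as sets. Values of some genes are not reported here.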

Additional observations from a re-analysis of the deposited data

Results flagged for a closer look

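For each named gene and list, and for library totals, the 4 animals of a diet were examined for 1 value far from the other 3, by Dixon's ratio of the gap to the range, past its critical value at the 95% level. Of 270 sets 25 stood out, where chance alone gives about 1 in 20, or 13.5. UW replicate 1 was the outlying animal in 12, NIA replicate 4 in 8 and NIA replicate 2 in 1.

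In NIA replicate 4, Cox7a1 read 3613 CPM (579 to 809 in the other 3), Rps24, a ribosomal protein gene, 3375 (670 to 802), Rpl35 1479 (255 to 351), Hspe1 661 (106 to 187), Rpl38 477 (126 to 150) and Chac1 2.13 (1.67 to 1.75). It was low for Col1a2, a type I collagen chain, at 46.9 CPM (110 to 122), and for the TGF-beta signalling level, at -0.51 (0.04 to 0.06). NIA replicate 2 held 63005361 counts, against 2278223 to 5735048 in the other 3.

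In UW replicate 1, list levels were high for epicardial and mesothelial (1.38), endothelial (0.58) and fibroblast (0.58) markers. They were low for branched-chain amino acid breakdown (-0.45), citric acid cycle and pyruvate oxidation (-0.41), heat shock and chaperone (-0.33), circadian clock (-0.31) and cardiac stress genes (-0.26). The same animal had 457 CPM of Col3a1 (202 to 245 in the other 3), 24.9 of Cyp26b1 (5.26 to 7.57), 47.4 of Gsta4 (73.4 to 77) and 16673 of Myh6 (28103 to 28722). What sets this animal apart was not tested.

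In UW replicate 3, Mc1r read 116 CPM, Plin2 94.6 and Etv5 24.1, and in UW replicate 2 Srebf1 read 34.6, each the highest of its diet.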

How the results depend on the processing

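The count of genes past the threshold, 0 in edgeR, was also 0 under RLE and upper-quartile scaling, either other filter, the 8 libraries alone, without the 10 largest genes, with NIA replicate 2 thinned, without NIA replicates 1 and 4 together, without run genes and with the replicate block. It was 375 with DESeq2 (65 higher, 310 lower, with 5976 adjusted p-values not given), 916 with limma-voom (518 and 398) and 1627 without the 4 libraries of low weight (1139 and 488). Those 4 libraries were chosen by weights from these same counts. Leaving out 1 animal gave 0 to 217 calls (0 to 12 higher and 0 to 205 lower), the highest without NIA replicate 2. Same-numbered UW and NIA animals did not deviate together (correlations of -0.34, -0.22, -0.12 and 0.04). No batch is labelled, and 4 correlations cannot settle whether animals of the same number share one. The replicate block gave 0 calls, with 1547 genes at an unadjusted p under 0.05. Of 88 named genes, 78 had no change of sign under any alternative. Those that turned were close to 0 or rested on 1 animal. Angptl4 (0.01) was -0.02 by RLE, -0.03 by upper-quartile scaling, -0.02 by DESeq2, -0.43 by limma-voom, -0.18 with the replicate block, 0 without the 4 libraries and without run genes, and -0.74 to 0.29 without 1 animal. Mt1 (-0.08) was 0.15 by limma-voom, without NIA replicates 1 and 4 and without the 4 libraries, and -0.35 to 0.16 without 1 animal. By limma-voom Col1a1 was -0.04 and Scd1 -0.03. Without 1 animal the ranges were -0.02 to 0.41 (Col1a1), -0.06 to 0.18 (Scd1), -0.37 to 1.37 (Pdk4), -0.36 to 0.37 (Ucp3), -0.41 to 0.61 (Cyp26b1), -0.05 to 0.27 (Postn), -0.10 to 0.59 (Myh7) and -0.03 to 0.21 (Dbp). The cause of these turns was not tested. Of 836 list medians under these alternatives, 14 moved by more than 1 SD of the list level, most of them without NIA replicates 1 and 4. Shallow libraries limit the low genes: 1 count is 0.711 CPM in NIA replicate 4.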
